A study of Papilio xuthus with 16 samples.

Results

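In the fourth larval instar of the swallowtail Papilio xuthus, gene expression in the epidermis was compared between 1 h after head capsule slippage (HCS) and the intermolt. The comparison used 4 of the 16 arrays of the series, 2 for each stage, and all 4 lay on 1 slide. Each array carried 2 colours, the green epidermis of a body part in Cy3 and its black marking in Cy5. The stages were sampled in the thorax without markings (thoracic segment 2, green), the eyespot (thoracic segment 3, black), the abdomen without markings (abdominal segments 3 and 4, green) and the V-shaped marking (abdominal segments 4 and 5, black). Larvae of no stated strain were bought, obtained from another laboratory or collected, and were reared on leaves under long days. The number of larvae behind each RNA is not given in the sources used here. The titles of these arrays name the mimetic pattern, whereas their source and tissue labels and the study's methods give the cryptic pattern, which was used. Of 15208 probes besides control spots, 8697 belong to 3380 P. xuthus sequences, and 470 of these sequences could be named through the gene tables held.

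For each region, the log2 ratio is that of the 1 h signal over the intermolt signal in the same dye, after all channels were scaled to the same 75th percentile of the P. xuthus probes. Region and dye therefore cancel in every ratio, and the 4 regions were the replicates of the stage difference. They do not cancel where levels of green and black regions are set side by side, since dye went with colour. A gene's value is the mean log2 over its probes. In a region, a gene counted as above background when at least 1 of its probes was flagged as well above background. Below or under background means that none was flagged, not that the signal lay under the background level. A mean signal can therefore lie near background in a region counted as above it. The 4 signals of a stage are given in the order thorax, eyespot, abdomen and V-shaped marking, in arbitrary linear units, and were never compared between genes. A gene was said to rise or fall at 1 h when its mean log2 ratio had a limma adjusted p under 0.05 over the 3178 genes tested.

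HCS marks the start of a molt, when the old head capsule slips forward over the new one. Insect molts are driven by pulses of ecdysteroids, which bind a nuclear receptor and switch on a set of early regulators, while juvenile hormone sets the character of the molt. The epidermis then separates from the old cuticle, releases enzymes that digest it, and lays down a new apical matrix and cuticle beneath. The fourth molt of P. xuthus is the one at which the larva takes on its green cryptic pattern.

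Between 78.1% and 86.9% of the P. xuthus probes were well above background in each channel, and 0 spots were saturated. Of the 4 arrays, 1 stood apart. On the 1 h array of the abdomen and the V-shaped marking, spots in 1 corner of the layout (rows over 140 and columns over 56, with 730 P. xuthus probes) deviated from the other 1 h array. There, 36.2% of the probes differed by more than 4-fold between the 2 arrays of 1 h, against 2.03% in the rest of the layout, and the 2 arrays of the intermolt gave 1.92% in the corner and 1.43% elsewhere. The scanner software marked 96 outlier spots in the corner of this array and 10 elsewhere. Of the 12 ribosomal protein probes in the corner, 7 lay more than 16-fold lower at 1 h on this array pair, against 0 of the other 170. A probe in the corner was held by 502 of the genes tested, and 52 had probes only there. Values of the stage comparison without the corner spots are therefore given where they change the call or direction of a named gene, or the count of rises or falls in a gene list.

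**Figure D1:**
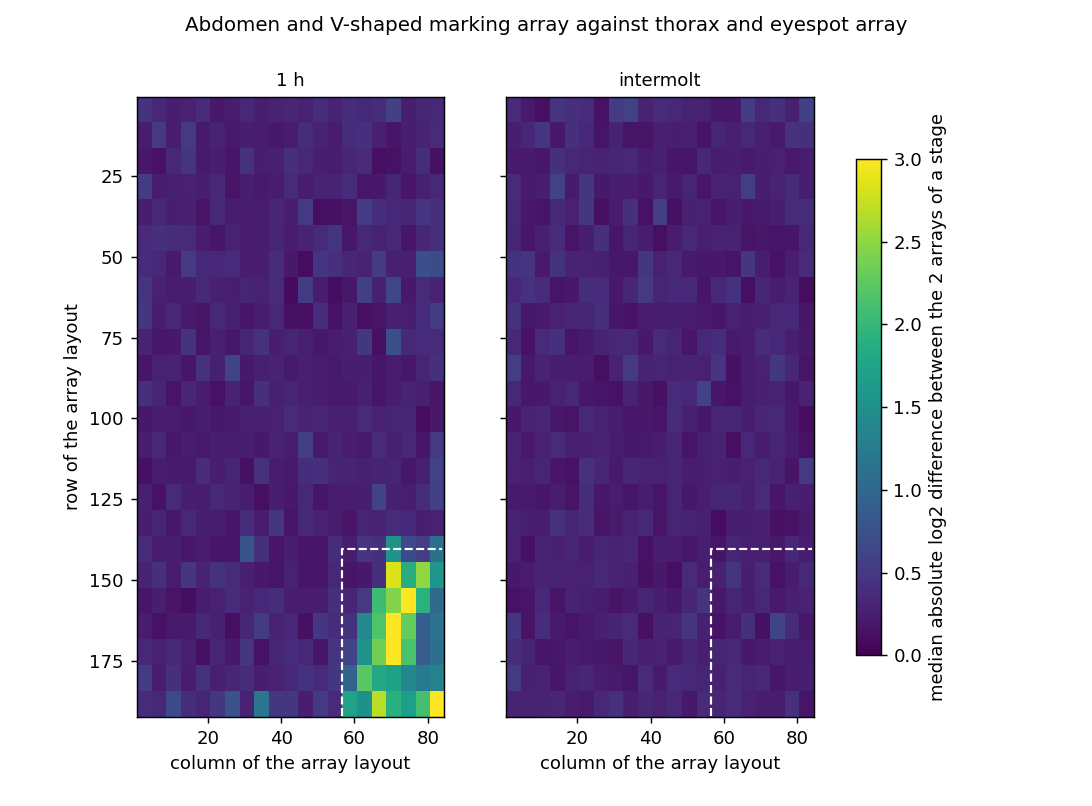
Median absolute log2 difference between the array of the abdomen and V-shaped marking and the array of the thorax and eyespot, in blocks of spots over the array layout (rows and columns of spots), at 1 h (left) and at intermolt (right). The dashed line bounds the corner at rows over 140 and columns over 56, where the difference was large at 1 h and not at intermolt.

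Most markers of other tissue on the dissected pieces were lower at 1 h. All 15 muscle markers fell at 1 h, against 47.4% of all genes, but only 4 did so with scaling to the ribosomal protein genes. Their summed signal was 207000 to 520000 over the regions at 1 h and 747000 to 1220000 at intermolt. The 2 fat body and haemocyte markers summed to 18800 to 36000 at 1 h and to 78300 to 169000 at intermolt. Of these 2, larval serum protein 1 gamma fell and collagen type IV did not pass (log2 ratios of -6.57 and -0.16). None of these markers was at or below background in a whole stage. Their part in the results was not tested, and in such bulk samples fewer cells of a type and less RNA per cell cannot be told apart. Each stage of a region pair was on its own array, so stage and array cannot be told apart within a pair. Nothing in the labels says that regions came from separate larvae, so the p-values measure the spread between these samples only.

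The 1 h epidermis differed from the intermolt epidermis in most genes. Of 3178 genes, 955 rose (30.1%) and 1507 fell (47.4%), that is 77.5% in all, and 2505 had an unadjusted p under 0.05. By at least 4-fold, 464 rose (14.6%) and 499 fell (15.7%). Counts in the gene lists below are to be read against these shares. The ratios of any 2 regions correlated across genes with r between 0.935 and 0.974, and 2691 genes had the same sign in all 4 regions. Levels correlated with r of at least 0.935 among the regions at 1 h and at least 0.971 at intermolt, against 0.475 to 0.524 between stages. In 2391 genes (75.2%) the signals of the stages did not overlap, and non-overlap in the genes named below is to be read against this share. An exact sign-flip test over 4 regions cannot go below a two-sided p of 0.125, so it gave no call.

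The balance of rises and falls depended on the scaling. The median log2 ratio of all genes was -0.40, and rises made up 38.8% of the calls. Without scaling the median was -0.07 and rises were 51.4% of the calls (906 rose, 855 fell). Scaled to the ribosomal protein genes, the median was 0.51 and rises were 70.4% (1086 rose, 457 fell), or 0.32 and 61.8% without the corner spots (1452 rose, 897 fell). Median, quantile and normexp scaling gave medians of -0.53, -0.49 and -0.28. Under every scaling tried on the full layout, 793 genes rose and 457 fell in common. Modest changes below are therefore to be read against the median of -0.40.

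**Figure D2:**
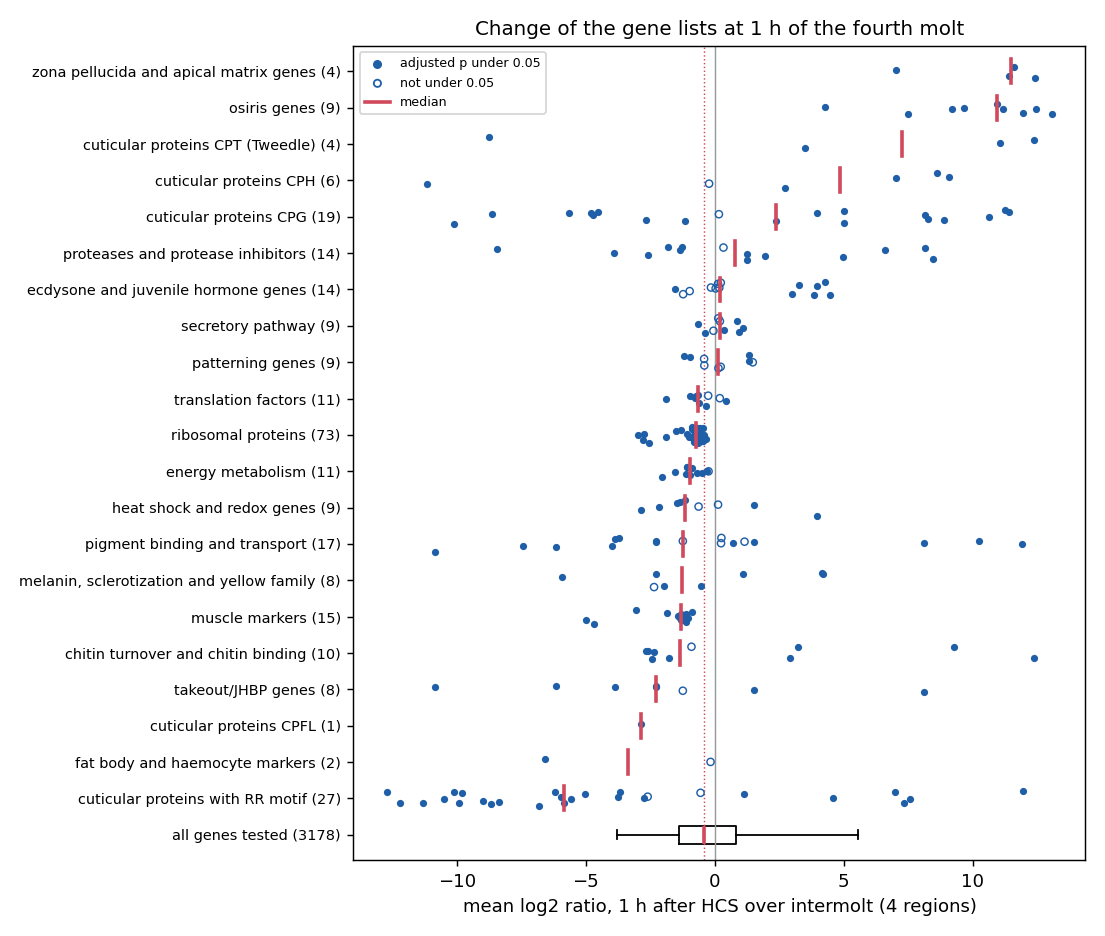
Mean log2 ratio of 1 h over intermolt for the members of each gene list (number tested in brackets), sorted by the list median (red bar), with a box for all genes tested (quartiles, whiskers at the 5th and 95th percentiles) in the bottom row. Filled points passed the test. The osiris genes and the zona pellucida and apical matrix genes lie wholly to the right, whereas most cuticular proteins with the RR motif lie far to the left.

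Several nuclear receptors and early factors of the ecdysone response rose at 1 h. Of 18 hormone genes on the array, 14 passed the filter on dim probes, and of these 6 rose, 1 fell and 7 did not pass the test, against 30.1% rising and 47.4% falling over all genes. All 6 that rose are transcription factors induced by ecdysone in other insects, and each rose by over 4-fold (with normexp, 3 of the 6 did so). E75A, E75B and E75D make up 3 of these rises and are isoforms of 1 gene, E75. The 6 are therefore not separate genes, which limits the comparison with the shares of all genes. The list's median was 0.21, against -0.40 over all genes. Broad-complex, ecdysone receptor B1, hormone receptor like in 38 and a juvenile hormone epoxide hydrolase were not tested, since too few of their channels were above background.

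E75, a nuclear receptor at the top of the ecdysone cascade, was measured as 3 isoforms. E75A (Px-4044) had signals of 1330, 1810, 1670 and 2000 at 1 h, against 95.4, 64.1, 62.4 and 90.2 at intermolt, (log2 ratio 4.46, SE 0.25, adjusted p = 9.76e-05), and the ratio was 4.00 without the corner spots. E75B (Px-4045) had 1250, 1650, 1270 and 1410 at 1 h and 112, 65.9, 81.1 and 102 at intermolt, 15.7-fold higher. For E75D (Px-4046) the signals were 432, 564, 367 and 390 at 1 h, against 54.3, 45.3, 33.7 and 50.2 at intermolt, 9.57-fold higher. In each isoform the lowest 1 h region was far above the highest intermolt region.

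Hormone receptor 3 (Px-4054), a nuclear receptor that acts after E75, had signals of 562, 744, 758 and 1020 at 1 h, against 55.2, 74.9, 38.3 and 44.9 at intermolt (log2 ratio 3.87, SE 0.27, adjusted p = 0.000189). Its 1 h signal was highest in the V-shaped marking and lowest in the thorax, and the stages did not overlap. Hormone receptor 4 (Px-4055), which restrains growth before molts in Drosophila, had 215, 263, 210 and 273 at 1 h and 21.4, 22.4, 9.7 and 4.8 at intermolt, where 2 of 4 regions were above background (log2 ratio 4.29, SE 0.51). E74 (Px-4043), an ETS factor and a classic early gene, had 120, 113, 200 and 174 at 1 h and was not above background in any region at intermolt, with 23.6, 20.8, 13.4 and 17.6. It was at least 5.46-fold higher at 1 h (adjusted p = 0.00101). This and the other bounds set the mean of the brighter stage against the lowest signal counted as well above background in each channel of the dimmer stage, or the gene's own where that was higher.

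The only hormone gene that fell was 3-dehydroecdysone 3b-reductase (Px-0248), which converts 3-dehydroecdysone to ecdysone. Its signals were 15400, 8700, 10100 and 11200 at 1 h, against 37200, 48000, 23400 and 25800 at intermolt (log2 ratio -1.54, SE 0.30, adjusted p = 0.00626). The eyespot had the lowest signal at 1 h and the highest at intermolt, and its ratio of -2.47 stood apart from the -1.27 to -1.21 of the other regions. The call was lost without scaling and with ribosomal protein scaling (log2 ratios of -1.22 and -0.64).

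The receptor itself gave no call. Ecdysone receptor A (Px-4047) had 57.9, 70.6, 48.2 and 64.5 at 1 h and 65.1, 70.8, 46.5 and 53.2 at intermolt (log2 ratio 0.04, SE 0.19, adjusted p = 0.858), and the stages overlapped, with 3 of 4 regions above background at 1 h. Cryptocephal (Px-0351), a bZIP factor that acts with the ecdysone receptor in Drosophila, had 13600, 13400, 16200 and 14900 at 1 h and 12700, 13000, 12800 and 12600 at intermolt (log2 ratio 0.18, SE 0.09). Hepatocyte nuclear factor 4 (Px-4053), a nuclear receptor of lipid metabolism, had a log2 ratio of 0.13 (SE 0.23), and farnesyl pyrophosphate synthase (Px-4050), an enzyme of the pathway to juvenile hormone, one of 0.24 (SE 0.37). The synthase was lower at 1 h in both thoracic regions and higher in both abdominal regions, with 575, 532, 1580 and 1030 at 1 h and 839, 780, 690 and 569 at intermolt.

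Besides E75A, 3 hormone genes held a probe in the corner. Kruppel homolog 1 (Px-4059), the main transcription factor of the juvenile hormone response, had 34.8, 41.4, 202 and 78.7 at 1 h, against 87.6, 61.7, 76 and 82.9 at intermolt, and did not pass (log2 ratio -0.14, SE 0.53). Without its corner probe it fell by 0.72 on the log2 scale (adjusted p = 0.014). Membrane steroid binding protein (Px-0327) did not pass either (log2 ratio -0.97, SE 0.37, adjusted p = 0.0596), and fell by 1.30 on the log2 scale without its corner probe (adjusted p = 0.00868). The single probe of ftz transcription factor 1 (Px-4052), a nuclear receptor that follows the ecdysteroid peak, lay in the corner. Its signals were 9.2, 5.8, 119 and 22.5 at 1 h, where 1 of 4 regions was above background, and 66.2, 36.3, 47.9 and 36.8 at intermolt. Leaving out the corner spots therefore gave 6 rises and 3 falls in the hormone list.

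**Figure D3:**
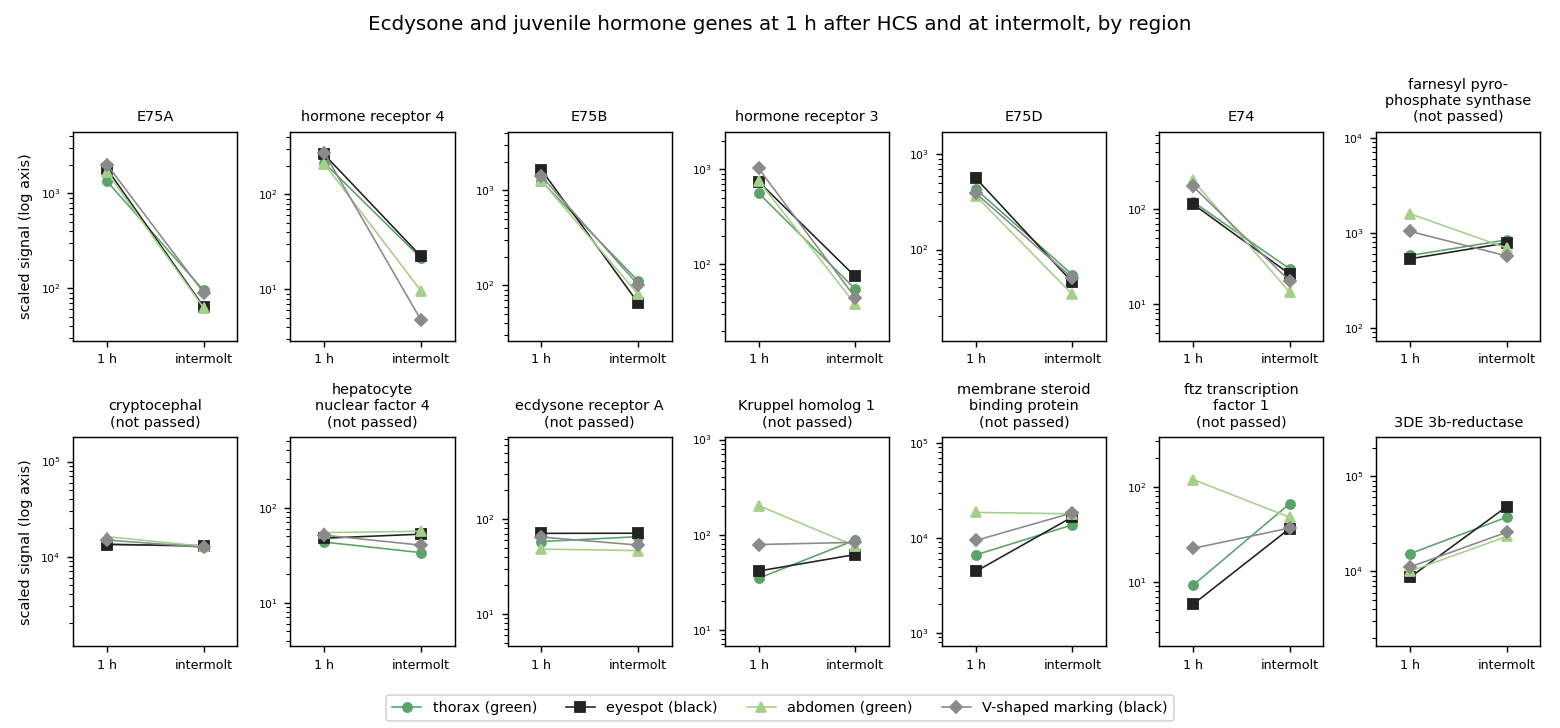
Scaled signal intensity (log axis, the same span in every panel) of the 14 hormone genes tested, in each region at 1 h (left) and at intermolt (right), with a line for each region. In the 6 genes that rose, the 4 lines all slope the same way and the stages do not overlap, as in 75.2% of all genes tested.

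All 9 osiris genes rose, each by over 4-fold, against 14.6% of all genes. The median log2 ratio of the osiris genes was 10.96 (9.65 with genes under background at intermolt set at their lower bound). Osiris genes encode a family of small membrane proteins particular to insects that is expressed in cuticle-forming epithelia. Osiris 9E (Px-0018) had signals of 97100, 89300, 77700 and 92400 at 1 h, against 12.3, 33.1, 5.2 and 5.1 at intermolt, where 1 of 4 regions was above background. Its log2 ratio was 13.09 (SE 0.54) (adjusted p = 4.18e-05), which rests on intermolt signals near background. Osiris 7 (Px-0394) had 65100, 44900, 64700 and 54200 at 1 h and 8.9, 12.5, 7.3 and 12.5 at intermolt, and osiris 9B (Px-0084) had 56600, 70900, 55200 and 60500 at 1 h and 12.7, 79.6, 6.7 and 8.4 at intermolt, each above background in 1 region of the intermolt. Osiris 9B and 9E were highest at intermolt in the eyespot. Osiris 9A (Px-0052) had 15700, 14200, 13400 and 13700 at 1 h and was not above background in any intermolt region, which makes it at least 550-fold higher at 1 h. The sum over the 9 genes was 258000 to 278000 at 1 h and 157 to 265 at intermolt. The smallest osiris rise was 4.26 on the log2 scale.

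Genes of the apical extracellular matrix behaved likewise. Of 5 such genes, 4 were tested and all 4 rose (median log2 ratio 11.51, or 10.27 with bounds), against 30.1% of all genes. Mucin related 89F (Px-0038), a mucin, had signals of 40100, 81600, 28500 and 44500 at 1 h, against 9.5, 9.7, 6.5 and 7.4 at intermolt, below background in all 4 regions, and was at least 1746-fold higher. Dusky (Px-0224), a zona pellucida domain protein that shapes the cuticle of wing cells in Drosophila, had 24600, 17600, 23100 and 25900 at 1 h and 8, 5.8, 7.8 and 7.3 at intermolt, at least 872-fold higher (adjusted p = 3.29e-06). Both dusky-like genes rose as well. Px-0137 had a log2 ratio of 11.40 (SE 0.25) and Px-0364 one of 7.02 (SE 1.05), and each was above background in 2 intermolt regions. In Px-0364 the eyespot stood out, with 992 at 1 h and 61.6 at intermolt, the lowest and the highest signal of their stages.

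Both chitinases rose, whereas 4 of 5 chitin binding proteins fell. Of 10 genes of chitin turnover and chitin binding, 4 rose, 5 fell and 1 did not pass, against 30.1% rising and 47.4% falling over all genes. The median was -1.34, and without the corner spots 4 rose and 6 fell. With ribosomal protein scaling 4 rose and 3 fell, none of the falls by 4-fold (median -0.43). Chitinase 7 (Px-0164) had signals of 75000, 128000, 66200 and 83800 at 1 h, against 11.4, 14.1, 19.5 and 20.1 at intermolt, above background in 1 intermolt region (log2 ratio 12.40, SE 0.28, adjusted p = 1.02e-05). Chitinase 5 (Px-0229), the main enzyme that degrades old cuticle, had 15700, 16300, 11300 and 13100 at 1 h and 38.4, 36.8, 16 and 11.5 at intermolt, above background in 2 intermolt regions, and was 618-fold higher at 1 h. In both genes every region at 1 h lay far above every region at intermolt. N-acetylglucosamine-6-phosphate deacetylase (Px-0403), an enzyme that recycles the sugar of chitin, was 7.52-fold higher, and a chitin binding peritrophin-A protein (Px-0310) 9.37-fold higher. The 5 genes that fell, named after their values were seen, had log2 ratios between -2.66 and -1.77. They were 2 genes for obstructor-A, obstructor-B and another peritrophin-A protein, all of which bind chitin, and chitin deacetylase 1, which modifies it.

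Among 14 proteases and protease inhibitors, 7 rose, 6 fell and 1 did not pass (median 0.79), against 30.1% rising and 47.4% falling over all genes. With ribosomal protein scaling 8 rose and 2 fell (median 1.70). Oviductin (Px-0335), a trypsin-like protease, had 2920, 4090, 2350 and 2870 at 1 h and was below background throughout the intermolt, at least 116-fold higher at 1 h. A clip-domain serine protease of family A (Px-0184), a kind known from proteolytic cascades, had 5600, 4280, 6480 and 6770 at 1 h and 22.2, 28.1, 15.3 and 17.4 at intermolt. A serine protease inhibitor (Px-0033) had 57600, 63700, 43700 and 58500 at 1 h and 419, 845, 343 and 821 at intermolt, 98.5-fold higher. Scarface (Px-0258), a protease homolog without catalytic activity in Drosophila, went the opposite way with 35.4, 24.6, 33.7 and 56.3 at 1 h, against 16900, 10200, 10300 and 13500 at intermolt (log2 ratio -8.44, SE 0.20, adjusted p = 1.26e-05). None of these 4 genes overlapped between the stages, which also held for 75.2% of all genes.

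Cuticular protein genes changed in both directions, and by large factors. Of 62 cuticular protein genes, 57 were tested, 23 rose and 30 fell, all but 1 in each direction by at least 4-fold, and 4 did not pass. Over all genes 30.1% rose and 47.4% fell, and 14.6% and 15.7% did so by at least 4-fold. The summed signal of the 57 genes was 570000 to 772000 at 1 h and 1520000 to 1980000 at intermolt. The classes differed in direction. Of 27 CPR genes, which carry the chitin binding Rebers-Riddiford (RR) motif, 6 rose and 19 fell, with a median log2 ratio of -5.83. Of 19 glycine-rich CPG genes, 10 rose and 8 fell (median 2.38). Of 4 Tweedle (CPT) genes, 3 rose and 1 fell (median 7.28), and of 6 CPH genes, 4 rose and 1 fell (median 4.87, or 4.52 with bounds). The single CPFL gene tested fell. The difference between the classes was not tested. Without the corner spots the counts were 23 and 31 for all cuticular protein genes, 6 and 20 for CPR genes, and 10 and 8 for CPG genes.

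Among the CPR genes, PxutCPR59B (Px-4013) had signals of 50.5, 9.7, 10.4 and 17.8 at 1 h, above background in 2 of 4 regions, against 126000, 111000, 117000 and 112000 at intermolt (log2 ratio -12.71, SE 0.52, adjusted p = 4.18e-05). PxutCPR41A (Px-0074) had 22.6, 66.5, 25.8 and 53.7 at 1 h, above background in 3 of 4 regions, and 206000, 183000, 138000 and 194000 at intermolt. PxutCPR27A (Px-0396) had 55.4, 40.6, 15.5 and 169 at 1 h and 163000, 155000, 90600 and 106000 at intermolt, with its highest 1 h signal in the V-shaped marking and 3 of 4 regions above background at 1 h. In none of these 3 genes did the stages overlap, which also held for 75.2% of all genes. PxutCPR4A (Px-0012), PxutCPR4B (Px-0014), PxutCPR3 (Px-0016) and PxutCPR19 (Px-0168) had log2 ratios of -10.48 (SE 0.16), -10.11 (SE 0.26), -9.90 (SE 0.34) and -9.81 (SE 0.19). PxutCPR19 varied between regions more than the others, with 22.6, 13.2, 39.3 and 60.1 at 1 h and 27100, 11200, 26700 and 56400 at intermolt, and its ratios stayed between -10.22 and -9.41.

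The CPR genes that rose included PxutCPR123 (Px-0051). Its signals were 78000, 11400, 73800 and 43000 at 1 h, against 13.1, 10.9, 13.2 and 6.2 at intermolt, above background in 1 intermolt region (log2 ratio 11.95, SE 0.61, adjusted p = 7.95e-05). The eyespot reached a ratio of 10.03, below the 12.45 to 12.77 of the other regions. The other 5 had log2 ratios from 1.14 (PxutCPR146, Px-0189) to 7.56 (PxutCPR18, Px-0188, below background at intermolt), the ends of the range, which were named after their values were seen.

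Large rises were also measured in Tweedle and glycine-rich genes. PxutCPT2 (Px-0006) had 78900, 58000, 75700 and 70700 at 1 h and 11.6, 17.5, 9.9 and 15.2 at intermolt (log2 ratio 12.37, SE 0.29, adjusted p = 1.17e-05). At least 1 of its 21 probes was flagged in each intermolt region, but its ratio rests on mean intermolt signals near background. PxutCPT3 (Px-0001) had 103000, 94900, 97600 and 97000 at 1 h and 44.6, 104, 24.8 and 38.7 at intermolt, with the eyespot highest at intermolt. PxutCPT4 (Px-0225) was 11.3-fold higher at 1 h. PxutCPT1 (Px-0067) was the exception among the Tweedle genes, with 668, 723, 64.9 and 307 at 1 h, against 170000, 115000, 125000 and 129000 at intermolt, and its lowest 1 h signal in the abdomen (log2 ratio -8.73, SE 0.69).

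In the CPG class, PxutCPG7 (Px-0008) had 62100, 73300, 69700 and 71100 at 1 h and 11.3, 46.3, 17 and 44.7 at intermolt, above background in 3 intermolt regions, 2745-fold higher. PxutCPG9 (Px-0063) had 16300, 15600, 19500 and 31200 at 1 h and was below background at intermolt, at least 767-fold higher. PxutCPG24 (Px-0005) had 138000, 46100, 90300 and 76700 at 1 h and 56.1, 52.7, 77 and 30.1 at intermolt, highest at 1 h in the thorax. PxutCPG5 (Px-0020) went the other way, with 10.3, 63, 16.5 and 43.1 at 1 h and 25200, 45900, 33700 and 16700 at intermolt (log2 ratio -10.09, SE 0.64).

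The CPH genes of the rising kind included a pair whose 1 h signal differed between the thoracic and the abdominal array pair. PxutCPH19 (Px-0233) had 1860, 650, 12700 and 10200 at 1 h and PxutCPH18 (Px-0317) had 856, 378, 7210 and 7960, and both were below background in every intermolt region. In both genes the 1 h signal was higher in the abdomen and the V-shaped marking than in the thorax and the eyespot. Segment and array pair cannot be told apart here. For thorax minus abdomen, PxutCPH18, with 1 probe, passed in limma (adjusted p = 0.0268), but not without the corner spots (adjusted p = 0.0958). PxutCPH19 and PxutCPH18 were at least 137-fold and at least 80.3-fold higher at 1 h. PxutCPH33 (Px-0076) was 129-fold higher, and PxutCPH6 (Px-0259) fell, with 15.3, 23.2, 32.4 and 20.1 at 1 h against 47000, 58300, 47400 and 45800 at intermolt. PxutCPFL5 (Px-4018) had 33.4, 44.4, 12.5 and 27.4 at 1 h, above background in 3 regions, and 272, 271, 136 and 146 at intermolt.

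**Figure D4:**
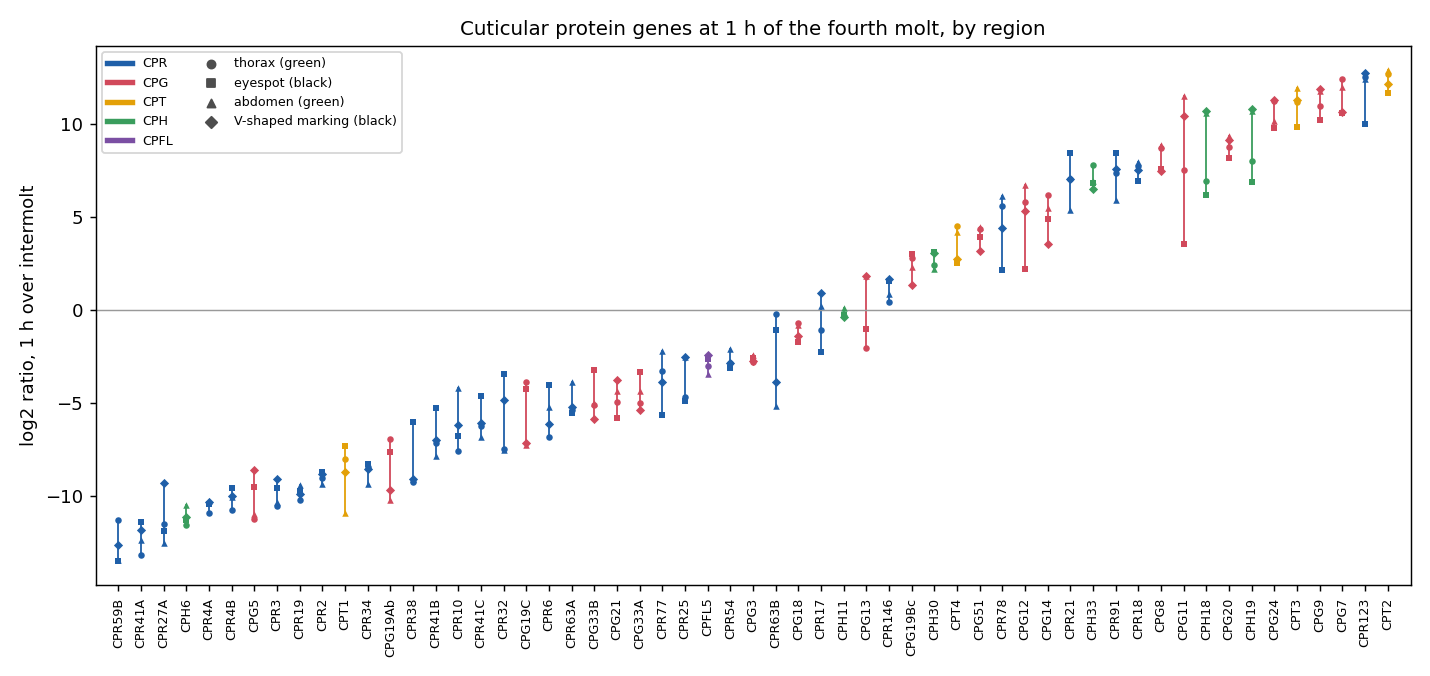
Log2 ratio of 1 h over intermolt in each of the 4 regions (marker shape) for the 57 cuticular protein genes tested, sorted by their mean and coloured by class. Lines join the regions of a gene. CPR genes (blue) fill most of the left side, and CPG, CPT and CPH genes most of the right side.

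The probes that carry these values are 60 bases long. Of 797 probe sequences held, for 431 genes, 235 lie wholly within the predicted coding frame. A coding probe is shown for 3 cuticular proteins and for 3 other genes that rose, with the glycine codons in capitals. None of them is from the glycine-rich CPG class. These probes were chosen after the values were seen, and glycine content was not compared between gene classes.
PxutCPT3 (rose): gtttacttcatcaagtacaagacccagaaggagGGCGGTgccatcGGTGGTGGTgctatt
PxutCPR4B (fell): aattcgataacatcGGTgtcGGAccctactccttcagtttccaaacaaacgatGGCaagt
PxutCPR27A (fell): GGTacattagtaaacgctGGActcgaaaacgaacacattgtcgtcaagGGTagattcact
osiris 9E (rose): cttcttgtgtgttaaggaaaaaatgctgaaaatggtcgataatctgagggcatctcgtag
alpha tocopherol transfer protein Px-0249 (rose): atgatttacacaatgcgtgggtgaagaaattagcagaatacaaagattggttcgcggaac
microsomal glutathione S-transferase-like Px-0257 (rose): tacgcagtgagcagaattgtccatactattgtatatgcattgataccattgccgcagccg
The Tweedle probe holds 5 glycine codons among 20, and the CPR probes hold 3 each. The other 3 probes hold 0.

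Near-identical probes limit the reading of some members. Among the probe sequences held, 2 pairs from different genes differed at 12 or fewer bases when aligned without gaps. The CPG genes PxutCPG33B (Px-0280) and PxutCPG33A (Px-0301) share a 60-base stretch that differs at 1 base, in capitals below.
PxutCPG33B: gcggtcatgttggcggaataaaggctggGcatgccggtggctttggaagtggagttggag
PxutCPG33A: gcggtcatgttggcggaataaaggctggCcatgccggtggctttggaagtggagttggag
The mean log2 ratios of the 2 genes, over all their probes, were -4.80 and -4.53. On this stretch the signal of one cannot be told apart from that of the other. The other pair joins Px-0371 and Px-0391, with log2 ratios of 3.34 and 4.78.

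Genes of pigment binding and lipid transport changed in both directions, at shares near those of all genes. Of 18 genes, 17 were tested, 5 rose, 8 fell and 4 did not pass, against 30.1% rising and 47.4% falling over all genes. The median was -1.23, or -0.33 with ribosomal protein scaling. The largest changes were in alpha tocopherol transfer proteins, lipid carriers of the CRAL/TRIO family, and in takeout/JHBP genes, whose relatives bind juvenile hormone and other small lipids. The alpha tocopherol transfer protein Px-0249 had 34500, 34500, 29500 and 22300 at 1 h and was below background at intermolt, at least 1152-fold higher. Its relative Px-0208 had 16000, 16000, 14500 and 16200 at 1 h and 13.3, 17.9, 11.8 and 9.6 at intermolt, above background in 2 intermolt regions (log2 ratio 10.25, SE 0.19).

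Of the 8 takeout/JHBP genes tested, 2 rose and 5 fell, against 30.1% rising and 47.4% falling over all genes. The median of the 8 was -2.26 (-1.36 and 3 falls with ribosomal protein scaling). Px-0271 was below background in every region at 1 h, with 3.7, 4.1, 10 and 4.4, against 15100, 7780, 8500 and 7060 at intermolt, at least 416-fold lower (adjusted p = 3.9e-05). Px-0207 had 5.4, 6, 11.9 and 6.6 at 1 h, means near background, although at least 1 of its 5 probes was flagged in 3 regions. Its intermolt signals were 332, 263, 764 and 937, and Px-0230 was at least 4.68-fold lower at 1 h. At intermolt both were higher in the abdominal regions than in the thoracic ones. Px-0283 rose, with 19100, 25000, 7360 and 8840 at 1 h, against 19.8, 49.8, 60.9 and 86.5 at intermolt, above background in 3 intermolt regions (log2 ratio 8.12, SE 0.64).

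The bilin binding proteins are lipocalins that carry a blue bile pigment. BBP1 (Px-0010) had 59300, 36500, 18600 and 73700 at 1 h and 97600, 10000, 39900 and 36600 at intermolt (log2 ratio 0.26, SE 0.71, adjusted p = 0.751), and was higher at 1 h in the black regions and lower in the green ones. BBP2 (Px-0024) had a log2 ratio of 0.25 (SE 0.25), BBP3 (Px-0106) rose by 1.63-fold (adjusted p = 0.0285, a call lost without scaling and with median scaling), and BBP4 (Px-4030), above background in 3 regions at 1 h and 1 at intermolt, had a log2 ratio of 1.16 (SE 0.63). The putative carotenoid binding protein PCBP1 (Px-0019) had 22700, 840, 8600 and 919 at 1 h and 41700, 1490, 70400 and 1050 at intermolt (log2 ratio -1.23, SE 0.62), higher in the green regions at either stage. PCBP2 (Px-0220) rose, with 92.7, 10200, 142 and 5120 at 1 h and 63, 3820, 51.3 and 806 at intermolt, and was higher in the black regions at either stage (log2 ratio 1.53, SE 0.40, adjusted p = 0.0192). The call for PCBP2 was lost with quantile normalization and with normexp. Green and black regions were read in different dyes, so dye and marking cannot be told apart in their levels.

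Of 11 genes of melanin, sclerotization and the yellow family, 8 were tested, 3 rose, 4 fell and 1 did not pass (median -1.25, or -0.34 with 2 falls with ribosomal protein scaling). Over all genes 30.1% rose and 47.4% fell. Laccase2 (Px-0292), the oxidase that tans cuticle, had 7470, 3840, 3950 and 3130 at 1 h and 336, 478, 110 and 194 at intermolt, 17.9-fold higher (adjusted p = 0.000719). Yellow-e (Px-0200) had 14300, 2390, 15700 and 6820 at 1 h and 313, 445, 643 and 340 at intermolt. At 1 h it was higher in each green region than in its paired black marking, which was read in the other dye. The yellow related gene YRG (Px-0080) fell, with 33.2, 30.7, 29.6 and 36.6 at 1 h, against 2640, 2470, 1110 and 1940 at intermolt (log2 ratio -5.90, SE 0.24). Silver (Px-4066), a carboxypeptidase in Drosophila, was 4.79-fold lower at 1 h. Ebony, which makes a pale tanning precursor, was not tested, since its signals did not pass the filter.

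Yellow (Px-0108), which is needed for black melanin, was the member that did not pass. Its signals were 98.8, 1500, 126 and 1820 at 1 h, against 1870, 2150, 1830 and 3090 at intermolt. The 2 green regions were lower at 1 h by -4.25 and -3.86 on the log2 scale, and the black ones had ratios of -0.52 and -0.77. The mean was -2.35 (SE 1.01) (adjusted p = 0.0858), and all 4 regions had the same sign.

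Of 16 patterning genes, 9 were tested, 2 rose, 2 fell and 5 did not pass, against 30.1% rising and 47.4% falling over all genes. The patterning median of 0.15 turned to -0.49 with quantile normalization and to -0.13 without the corner spots. Fringe (Px-4051), a glycosyltransferase that tunes Notch, had 727, 2920, 960 and 1480 at 1 h and 434, 815, 426 and 503 at intermolt (log2 ratio 1.33, SE 0.26, adjusted p = 0.00656). It was highest in the eyespot at either stage. The homeodomain gene unplugged (Px-4071) was 2.51-fold higher (adjusted p = 0.0257), which rested on 2 intermolt regions above background and was lost under 4 of the 6 other scalings. Daughters against dpp (Px-4035), an inhibitor of BMP signalling, was 2.27-fold lower, and engrailed (Px-4049), which marks the rear compartment of each segment, 1.94-fold lower, and neither passed without scaling or with ribosomal protein scaling. Spalt (Px-4067) was above background in 3 regions at 1 h and 2 at intermolt, with a log2 ratio of 0.24 (SE 0.31).

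Genes of growth and housekeeping moved as blocks of modest size. All 73 ribosomal protein genes fell, against 47.4% of all genes. The ribosomal median log2 ratio was -0.70, or -0.38 without scaling, with 2 called. It was 0.20 with 0 called when the scaling itself rested on these 73 (-0.01, with 9 rises and 7 falls, without the corner spots). Their summed signal was 3100000 to 3780000 at 1 h and 5630000 to 6010000 at intermolt. The 4 largest falls, in L7, L31, L35 and LP2 (log2 ratios from -2.98 to -2.55, SE 0.87 to 0.99), each held a probe in the corner. Without it their ratios were -0.78, -0.76, -0.80 and -0.69. For LP2 (Px-0054) the corner probe read -12.36 in the abdomen and -11.56 in the V-shaped marking, and its other 2 probes between -0.81 and -0.61 there.

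Of 11 translation factors, 8 fell and 1 rose (median -0.66, but 0.25 with ribosomal protein scaling), against 47.4% and 30.1% of all genes. Without the corner spots 8 fell and 2 rose. Elongation factor 1 beta (Px-0268) and elongation factor 1 gamma (Px-0142) were lower by 1.7-fold and 1.71-fold at 1 h, and both turned upward, to log2 ratios of 0.14 and 0.13, with ribosomal protein scaling. Initiation factor 5a was measured as Px-0203 (-0.96, SE 0.08) and Px-4015 (-1.87, SE 0.54). In Px-4015 the abdominal ratios of -3.08 and -3.01 lay far below the thoracic ones of -0.77 and -0.62, although none of its probes lay in the corner. Its 2 probes differed, with mean log2 ratios of -2.95 and -0.78.

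Among 9 genes of the secretory pathway, 4 rose, 2 fell and 3 did not pass, against 30.1% rising and 47.4% falling over all genes. The list's median was 0.20, and ribosomal protein scaling gave 7 rises and 0 falls. Without the corner spots 5 rose and 2 fell. Of the 4 rises, 3 were in parts of the machinery that moves new proteins into the endoplasmic reticulum. Translocon-associated protein gamma (Px-0289) had 32500, 47900, 28200 and 35400 at 1 h and 16300, 16000, 15900 and 17300 at intermolt, 2.16-fold higher. Signal sequence receptor beta (Px-0290) was 1.92-fold higher and sec61beta (Px-0264) 1.8-fold higher. Calreticulin (Px-0169), a chaperone of the same compartment, fell by 0.66 on the log2 scale, and was at 0.24 with ribosomal protein scaling.

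Energy metabolism was lower at 1 h. Of 11 genes, 10 fell and 1 did not pass (median -0.96), against 47.4% falling over all genes. With ribosomal protein scaling, however, the median was -0.06 and 1 gene fell. Phosphoglyceromutase (Px-0386), of glycolysis, had 3670, 3620, 3710 and 3700 at 1 h and 13200, 12500, 18900 and 16000 at intermolt, 4.07-fold lower. The alpha and beta subunits of mitochondrial ATP synthase (Px-0406, Px-0234) were 2.88-fold and 2.17-fold lower, and fructose-bisphosphate aldolase (Px-0273) 2.11-fold lower. The muscle markers fell as well, and their part in this fall was not tested.

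Of 9 heat shock and redox genes, 5 fell, 2 rose and 2 did not pass (median -1.14), against 47.4% falling and 30.1% rising over all genes. With ribosomal protein scaling 2 of the 9 fell and 2 rose (median -0.24). Without the corner spots 6 fell and 2 rose. Heat shock protein 83 (Px-0303), a chaperone that steroid receptors need, had 22200, 15100, 26500 and 21600 at 1 h, against 155000, 180000, 136000 and 142000 at intermolt (log2 ratio -2.87, SE 0.24, adjusted p = 0.00032). Thioredoxin peroxidase 1 (Px-0409) was 4.42-fold lower. A microsomal glutathione S-transferase-like gene (Px-0257), of a detoxifying family, had 34200, 29300, 32800 and 36200 at 1 h and 1360, 2610, 2390 and 2480 at intermolt, 15.4-fold higher, and glutathione S transferase D8 (Px-0410) was 2.9-fold higher.

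All 15 muscle markers fell, against 47.4% of all genes, with a median of -1.30 (-0.40 and 4 falls with ribosomal protein scaling). Both calponin-like genes of muscle fell most. Muscle protein 20 (Px-0206) had 676, 1120, 1970 and 3650 at 1 h and 42800, 30500, 67200 and 59900 at intermolt, and muscular protein 20 (Px-0102) had 3330, 3410, 8640 and 8600 at 1 h and 144000, 114000, 168000 and 136000 at intermolt. At either stage both were higher in the abdominal than in the thoracic region of the same colour. The muscle-specific gene Px-4062, above background in 3 regions at 1 h, and muscle myosin heavy chain (Px-0068) had log2 ratios of -3.05 (SE 0.18) and -1.87 (SE 0.09), and the other 11 lay between -1.40 and -0.87. Of the 10 probes of Px-0068, 4 lay in the corner, and without them its ratio was -1.34. Its single probes ranged from -4.70 to -0.96. Larval serum protein 1 gamma (Px-0099), a storage protein made by fat body, had 1570, 876, 943 and 624 at 1 h, against 81100, 111000, 138000 and 52800 at intermolt (94.8-fold lower), whereas collagen type IV (Px-0251), a basement membrane protein, had a log2 ratio of -0.16 (SE 0.20).

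Beyond the lists, 99 genes were above background in all 4 regions at 1 h and in none at intermolt, and 37 showed the reverse. Named genes among the largest rises were the secreted protein gene Px-0041 (log2 ratio 12.53, SE 0.63, above background in 1 intermolt region) and Px-0132, similar to CG4702 of Drosophila. Px-0132 had 25800, 33600, 24500 and 34400 at 1 h and 7.7, 5.7, 5.2 and 5.1 at intermolt, below background, and was at least 1131-fold higher. Of 2732 sequences without a name in the tables held, 801 rose and 1279 fell, near the 30.1% and 47.4% of all genes. AK402853 and AK402844 rose most among the sequences without a name, by at least 446-fold and 536-fold. AK402874 fell most, with 17, 8.7, 9.3 and 9.4 at 1 h, above background in 1 region, against 93700, 89300, 70800 and 76600 at intermolt (log2 ratio -12.91, SE 0.21), followed by AK401360 (-11.28, SE 0.89), also above background in 1 region at 1 h.

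Whether the response differed between the markings was tested on the same 4 ratios. For black minus green regions 0 of 3178 genes (0.00%) passed in limma, with 258 at an unadjusted p under 0.05 and a smallest adjusted p of 0.150. The correlation within array pairs could not be estimated for this test, so that of the stage fit (0.26) was used. The smallest limma adjusted p was 0.325 without the array pair as a block and 0.0786 without the corner spots, again with 0 genes passing. Dye went with marking and cannot be told apart from it. The 5 genes with the smallest p were AK402938, yellow, PxutCPG8, AK402848 and AK404194. AK402938 had ratios of 1.52 and 1.04 in the eyespot and the V-shaped marking, against -4.33 and -5.03 in the thorax and the abdomen (difference 5.95, SE 0.28). The difference for yellow was 3.41 (SE 0.22, adjusted p = 0.214) and that for PxutCPG8 (Px-0004) -1.25 (SE 0.14). AK402848 and AK404194 differed by 2.38 (SE 0.28) and 3.00 (SE 0.36). These values are given as a description.

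For thorax minus abdomen, that is the pair of arrays of the thorax and eyespot against the other pair, 73 genes passed (2.30%), 52 higher and 21 lower in the thoracic pair. The 5 smallest p were those of ribosomal protein LP2, AK401553, ribosomal protein L35, AK403416 and AK404359, and 4 of them held a probe in the corner. Without the corner spots 0 of 3126 genes passed, with 468 at an unadjusted p under 0.05 and a smallest adjusted p of 0.0546. AK404359 had no corner probe, so its difference of 4.40 stayed as it was and did not pass (adjusted p = 0.0546). Its 2 probes disagreed, with mean log2 ratios of -3.79 and 0.58. Its signals were 7900, 7720, 340 and 418 at 1 h and 5040, 5320, 5370 and 5180 at intermolt. Segment and array pair cannot be told apart.

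The most similar comparison of the series was that of the third instar on the same slide, at 0 h after HCS over the intermolt, in black and white epidermis of the mimetic pattern. Its stage was 1 h earlier, and its regions were all abdominal, whereas the fourth instar mean includes thoracic regions. Instar, time, body segment and marking therefore cannot be told apart. The third instar side is 1 array pair with 2 channels, so its spread is only that between channels of the same arrays. Mean ratios of the fourth and the third instar correlated across the 3177 genes with both values (Pearson r = 0.831, a description, since genes share the slide and the scaling), and the mean was above 0 in both instars for 855 genes and below 0 in both for 1697. The ratios spread more widely in the fourth instar, with an SD over genes of 2.96, against 2.16 in the third. In the test of the difference 1148 genes (36.1%) passed, 621 higher and 527 lower in the fourth instar, and 1365 passed without the corner spots.

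**Figure D5:**
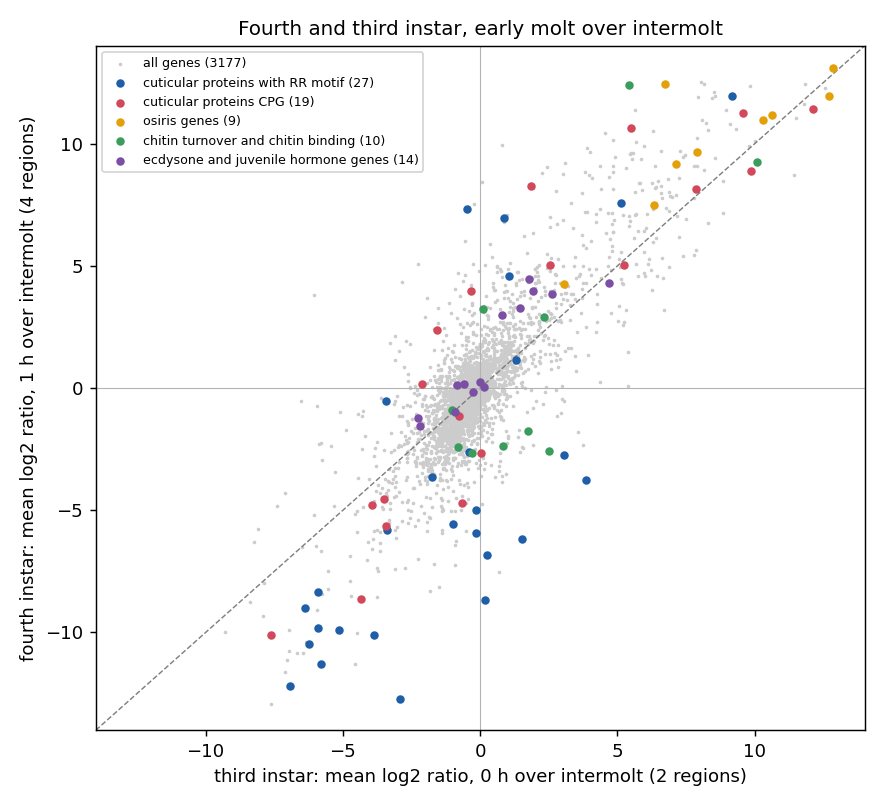
Mean log2 ratio of early molt over intermolt in the fourth instar (vertical axis, 1 h, 4 regions) against the third instar (horizontal axis, 0 h, 2 regions) for all genes with both values and for 5 gene lists. The dashed line marks equal ratios. Osiris genes lie at the upper right in both instars, whereas many CPR genes lie well below the line.

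RR-motif genes were among those that differed between the instars. PxutCPR59B (Px-4013) had a mean log2 ratio of -12.71 in the fourth and -2.92 in the third instar (difference -9.79, SE 0.87, adjusted p = 0.00189). PxutCPR4B (Px-0014) had -10.11 in the fourth and -3.86 in the third (difference -6.24, SE 0.41). Of the 27 CPR genes, 18 passed this test, and their median ratio was -5.83 in the fourth and -0.46 in the third instar. Of the 19 CPG genes, 6 passed, near the 36.1% of all genes, with medians of 2.38 in the fourth and -0.35 in the third instar. Chitinase 7 (Px-0164) had 12.40 in the fourth and 5.42 in the third (difference 6.98, SE 0.44, adjusted p = 0.00123). Osiris 7 (Px-0394) had 12.46 in the fourth and 6.75 in the third (difference 5.71, SE 0.48). Each of the last 2 was above background in 1 intermolt region of the fourth instar.

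Of the surface genes, 4 of 9 osiris genes and 2 of 4 apical matrix genes passed this test, next to 36.1% of all genes. Mucin related 89F (Px-0038) had 12.43 in the fourth and 8.16 in the third instar (difference 4.27, SE 0.56, adjusted p = 0.00418), and the dusky-like gene Px-0137 had 11.40 in the fourth and 8.95 in the third (difference 2.45, SE 0.42, adjusted p = 0.00786). Osiris 9E (Px-0018) did not pass, with 13.09 in the fourth and 12.85 in the third instar (difference 0.23, SE 0.84), nor did chitinase 5 (Px-0229), with 9.27 in the fourth and 10.10 in the third (difference -0.83, SE 0.60). In the fourth instar all of these ratios rest on intermolt signals near background, which limits what their differences show. All 9 osiris genes and all 4 apical matrix genes had ratios above 0 in either instar.

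The E75 isoforms were further up in the fourth instar. E75A (Px-4044) had 4.46 in the fourth and 1.77 in the third instar (difference 2.69, SE 0.38, adjusted p = 0.0047), E75B (Px-4045) 3.97 in the fourth and 1.94 in the third (adjusted p = 0.0124), and E75D (Px-4046) 3.26 in the fourth and 1.44 in the third (adjusted p = 0.00767). Hormone receptor 3 (Px-4054) and hormone receptor 4 (Px-4055) did not pass, with differences of 1.27 (SE 0.45) and -0.39 (SE 0.80). Yellow (Px-0108) had -2.35 in the fourth and 3.74 in the third (difference -6.09, adjusted p = 0.0273), and collagen type IV (Px-0251) -0.16 in the fourth and 2.38 in the third (difference -2.54, adjusted p = 0.00358). Muscle protein 20 (Px-0206) had -4.97 in the fourth and -0.68 in the third (difference -4.29, adjusted p = 0.00541).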

How the data were processed

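Total RNA (400 ng per label) of larval epidermis was hybridized to 2-colour Agilent arrays of 60-base probes designed from cDNA, with dyes not swapped. The authors deposited scanner output of Feature Extraction (9.5.3.1 in the headers). Its deposited processed signals, used here, are intensities on a linear scale from which the software had removed background and dye bias array by array. Their log2 was taken after each channel had been scaled to the same 75th percentile of P. xuthus probes. Outlier spots and probes well above background in under 4 of 8 channels were left out. Probes were averaged per gene, and log2 ratios were tested with limma 3.58.1 (R 4.3.3; lmFit, eBayes with trend, Benjamini-Hochberg), with the array pair as a random block (estimated correlation 0.26). In simulated ratios 200 genes were changed. At a log2 change of 1, 134 of them were recovered with 18 false calls, and at 2, 189 with 25. At 0.5 there were 0 recovered and 0 false. False calls at 1 and 2 ran above the nominal rate, and the cause was not tested. Averaging the channels of an array first gave 2155 calls. Regions pair the stages by label. Deviations of the same region at the 2 stages correlated with r = 0.26, 0.38, 0.24 and 0.15. Named genes were all hormone genes, the 10 named genes that rose and the 10 that fell most, up to 4 per list, 2 unnamed sequences per direction, 5 per difference test and genes of the study's text. Members and lists were chosen with earlier results of these data known. Probe sequences came from the study's probe table and gene names from its gene tables. The number of arrays limits the precision. The alternatives tried are given in the closing section.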

Additional observations from a re-analysis of the deposited data

Results flagged for a closer look

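Among the 116 named genes, 2 had 1 region far from the other 3, and chance alone marks about 1 in 20 such groups. For 3-dehydroecdysone 3b-reductase (Px-0248) this was the eyespot, with a log2 ratio of 1 h over intermolt of -2.47, against -1.27 to -1.21 in the other regions. For PxutCPR123 (Px-0051) it was again the eyespot, with 10.03, against 12.45 to 12.77. Neither gene had a probe in the deviating corner of the layout.

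The response differed between the thoracic and the abdominal array pair (thorax minus abdomen, limma) in ribosomal protein LP2 by 3.85, in AK401553 by 6.24, in ribosomal protein L35 by 4.10, in AK403416 by 5.12 and in AK404359 by 4.40 on the log2 scale. Without the corner spots the differences were 0.07 for LP2, 0.05 for L35 and 0.18 for AK403416. AK401553 had no other probe. AK404359 had no probe in the corner, so its value could not change, and it did not pass without the corner spots (adjusted p = 0.0546). Its 2 probes disagreed, with mean log2 ratios of -3.79 and 0.58.

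The response differed between the fourth and the third instar (the fourth minus the third) with the smallest p in AK403158, by 9.84, with log2 ratios of 3.75 to 3.83 in the 4 regions of the fourth instar and of -6.06 and -6.04 in the 2 regions of the third. At intermolt of the fourth instar AK403158 was below background in all 4 regions (7.5, 5.5, 6.5 and 6.4), so its ratios there rest on background signals. It was at least 3.47-fold higher at 1 h. The differences in AK401734 (3.01), the alpha tocopherol transfer protein Px-0249 (4.01), AK403493 (5.24) and AK402840 (5.32) were also positive. Px-0249 was below background in every intermolt region of the fourth instar and AK402840 in 2 of 4. AK403493 was higher at 1 h in all 4 regions of the fourth instar and lower at 0 h in both regions of the third. Time after HCS, body segment, marking and instar cannot be told apart here.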

How the results depend on the processing

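Of 1256 values of the 116 named genes under alternatives, 1092 kept their direction and side of the threshold, or moved by less than their spread, 43 kept the direction and lost the call, 13 gained a call, 84 moved (all between single probes of a gene) and 24 turned. The number of genes that rose (955) went to 2352 when each probe was tested alone and, with ribosomal protein scaling without the corner spots, to 1452. The number that fell (1507) went to 855 without scaling, 457 with ribosomal protein scaling, 3448 for single probes and 897 with ribosomal protein scaling without the corner spots. The use of the corner spots was questioned, and both alternatives without them chosen, after seeing the data. Thorax minus abdomen gave 0 calls without them. Leaving out a region or an array pair gave 844 to 962 rises and 1385 to 1445 falls.

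Without pairing of the regions (no replicate block) 915 genes rose and 1427 fell, 2342 in all, within 1.5 times the counts of the paired fit. Testing the 2 channels of an array as independent gave 987 rises and 1555 falls, and 1444 calls for the fourth minus the third instar. A test against a 1.5-fold change gave 679 rises and 1005 falls.

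The values that turned belonged mostly to genes that did not pass. Ecdysone receptor A was at -0.091 with median scaling, -0.534 with quantile normalization, -0.164 with normexp. Leaving out an array pair gave values from -0.087 to 0.165 for ecdysone receptor A, -0.549 to 1.027 for farnesyl pyrophosphate synthase, -2.742 to 0.302 for ftz transcription factor 1, -0.953 to 0.667 for Kruppel homolog 1, -0.047 to 0.573 for bilin binding protein 1, -0.107 to 0.579 for spalt and -3.808 to 0.593 for AK404359. The pair left out was the thoracic one for the first of these values in bilin binding protein 1, spalt and AK404359, and the abdominal one in the others. Hepatocyte nuclear factor 4 was at -0.466 and spalt at -0.494 with quantile normalization, and at -0.116 and -0.048 with normexp. Kruppel homolog 1 was at 0.183 and collagen type IV at 0.168 without scaling. With ribosomal protein scaling, Kruppel homolog 1 was at 0.762, collagen type IV at 0.747, elongation factor 1 gamma at 0.127, elongation factor 1 beta at 0.141, calreticulin at 0.244 and AK402848 at 0.378. Collagen type IV was at 0.026 with quantile normalization and at 0.208 with normexp. For these the cause was not tested. Signals near background limit the size of the largest ratios, which are bounds where a stage was below background in every region.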
